A study of Mus musculus with 12 samples.

Results

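The genes described here encode the Runx transcription factors, their partner subunit Cbfb, and the ETO and TLE families of corepressors. They were Runx1, Runx2, Runx3, Cbfb, Cbfa2t2, Cbfa2t3, Tle1, Tle3, Tle4 and Tle5, and every probe set that the platform annotation gave to 1 of these 10 symbols was taken, whatever its values. A probe set is a group of oligonucleotides on the array that reads 1 transcript region. For 9 of the 10 genes 26 probe sets were listed, of 45101 on the array; Runx2 was not analysed here. The 26 were 6 for Runx1, 2 for Runx3, 1 for Cbfb, 3 for Cbfa2t2, 4 for Cbfa2t3, 2 for Tle1, 4 for Tle3, 3 for Tle4 and 1 for Tle5. All 9 genes and all 26 probe sets passed the filter on dim signals, Tle5 only through its signal in HAFTL cells, and 11696 genes passed in all.

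The study measured RNA on 12 one-colour mouse arrays, 2 for each of 6 groups, and its title concerns the conversion of a B cell line to macrophages. HAFTL, a mouse line from fetal liver transformed by the Ha-ras oncogene, received beta estradiol. C10 carries C/EBPa, a transcription factor of myeloid cells, in inducible form; it was given either ethanol (called vehicle here) or beta estradiol, the latter with harvests at 3, 12, 24 and 48 h. The labels give no duration for HAFTL or for vehicle, and state neither the promoter that drives the C/EBPa form nor how C10 was derived. HAFTL and vehicle C10 therefore differed in the line, in the inducible factor and in estradiol, and both were controls. Each condition was 1 line. The labels do not call the duplicates separate cultures, so the p-values reflect the spread between these arrays alone, and that spread may be technical.

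Runx proteins bind DNA through a Runt domain, and Cbfb, which does not contact DNA itself, raises their affinity and stability. In blood development Runx1 is required for the first stem cells and acts in both the B and the myeloid lineages, while Runx3 is best known in T cells and in cells of the monocyte and dendritic series. ETO proteins (Cbfa2t2 and Cbfa2t3) and Groucho-related TLE proteins do not bind DNA. They are brought to it by factors such as E proteins, Runx proteins, Lef1 or Hes1, and recruit histone deacetylases. Cbfa2t3, also called Eto2, is a component of complexes with Tal1 or Lyl1, Lmo2 and E proteins in progenitor cells.

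Signals are quantile normalised, on the linear scale, and changes are log2 differences of group means with the standard error of the fit (2 arrays a group). Each gene is given by its brightest probe set unless another is named. A change was called at a limma adjusted p below 0.05 over all genes tested. A signal of 74.6, the median of all values, is the level under which a probe set counts as dim, and 16 is a floor to which lower signals were set.

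B lineage markers gave all 7 genes with a probe set above the dim level in both controls and still at 12, 24 and 48 h, with 6 at 3 h. Their summed signal went from 99748 to 110510 in controls to 18078 to 19728 at 48 h. The summed signal of 8 macrophage markers ran from 1290 to 1977 in the controls and from 116685 to 116768 at 48 h. Above the dim level were 4 of them in HAFTL, 5 in vehicle C10 and 8 at 48 h. Both sums moved with time in estradiol, as the genes below did, and their part in the results was not tested. Of markers of other cells, at most 1 of 4 T and NK cell genes (Cd8a) and 1 of 4 stroma genes (Col1a2, in HAFTL) were above the dim level in both arrays of any group. Of 5 erythroid and megakaryocyte genes 1 to 3 were, and their sum was 849 to 908 in HAFTL against 339 to 534 in C10. The ratio of 5′ to 3′ Actb control signal, a sign of RNA length, was 0.582 and 0.638 in vehicle C10, 0.691 and 0.740 in HAFTL, and 0.746 to 0.848 in the other arrays. The Actb ratio moved with estradiol in C10. The same ratio for Gapdh was 1.19 and 1.15 in vehicle C10, within the range of 1.13 to 1.32 in C10 with estradiol. It was 1.37 and 1.28 in HAFTL. The part of either ratio in the results was not tested.

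Across the C10 groups, 8 of the 9 genes changed by the moderated F test of limma, in which 76% of all genes were called. Tle5 was not called (adjusted p = 0.588). It was under the dim level in every C10 array, so the test could not read a change of it in C10. The counts and medians of the 9 genes include it. Of the 26 probe sets 21 changed, against 71.5% of all probe sets. At 3 h 3 rose (Runx1, Cbfa2t2 and Tle1) and 2 fell (Runx3 and Cbfa2t3), in a comparison that called 48.3% of genes, 20.9% higher and 27.3% lower. At 12 h Runx1 rose and Runx3, Cbfa2t3 and Tle4 fell (51% of genes called, 22.3% higher and 28.7% lower). At 24 h Runx1 rose and 6 fell, namely Runx3, Cbfa2t2, Cbfa2t3, Tle1, Tle3 and Tle4 (57.4% called, 24.2% higher and 33.3% lower). At 48 h Runx1 rose and 6 fell, with Cbfb in the place of Cbfa2t2 (62.4% called, 24.2% higher and 38.2% lower). The median change of the 9 genes was -0.54 at 24 h and -0.61 at 48 h, beside -0.13 and -0.19 over all genes tested. Since a large share of all genes tested was called at each time, the counts say little of the family as a whole, and the courses of the individual genes differ from each other. In these bulk samples, fewer cells of a type and less RNA per cell cannot be told apart.

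**Figure D1:**
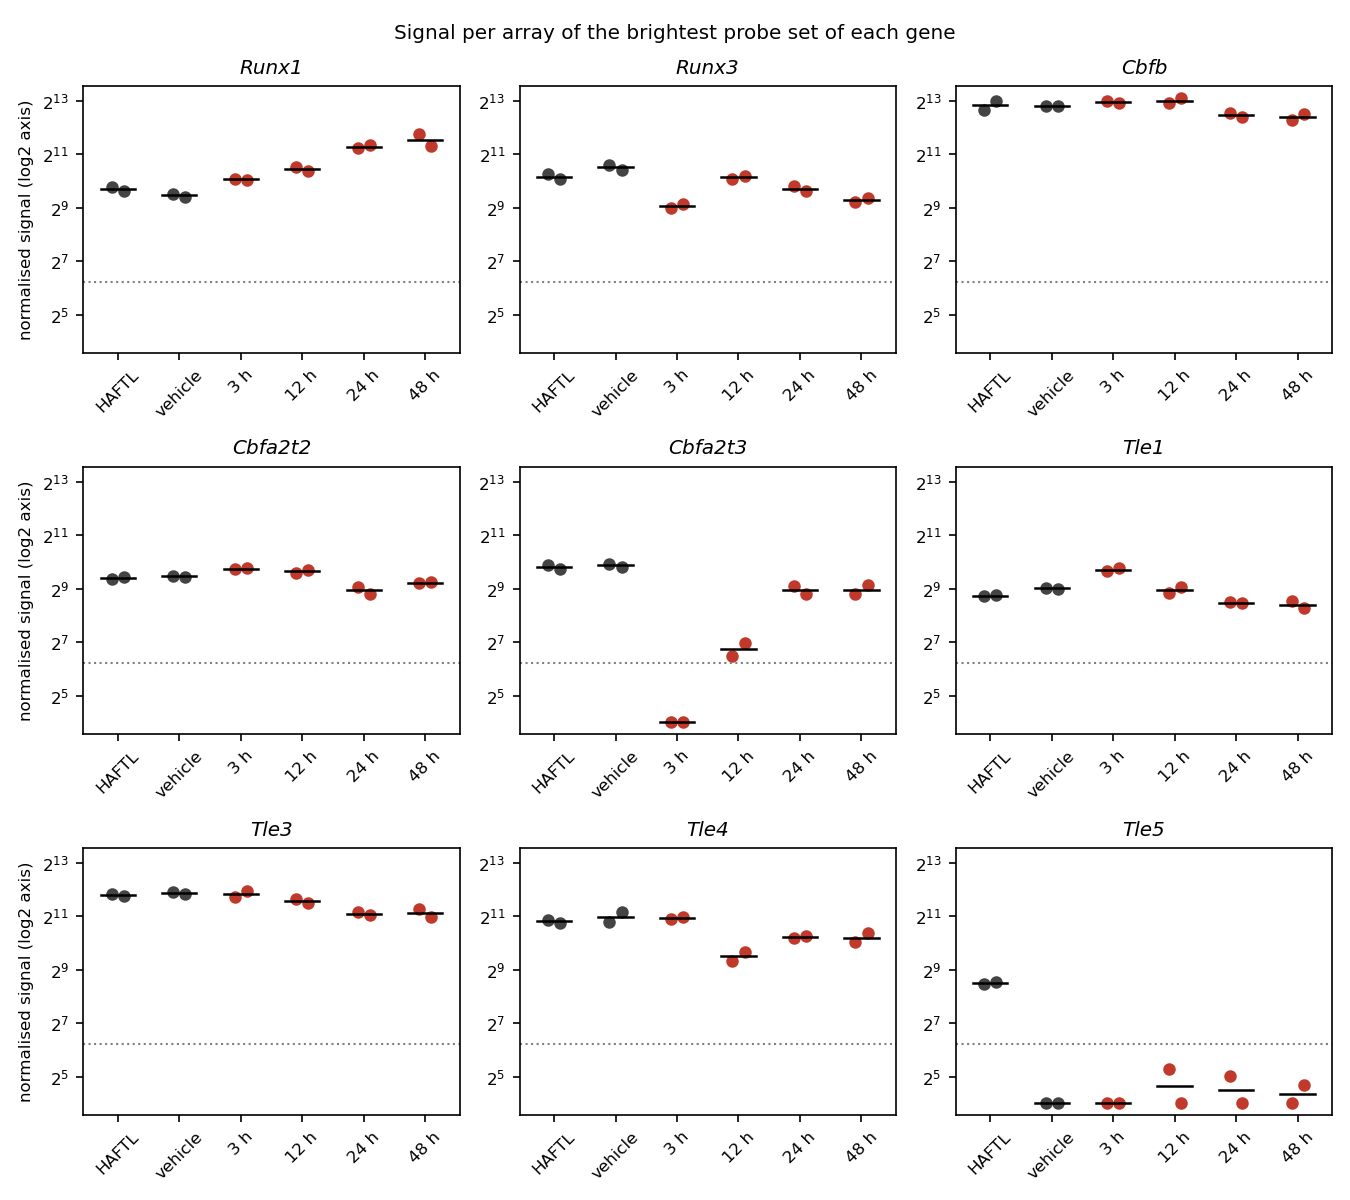
Normalised signal (log2 axis) of the brightest probe set of each of the 9 genes; each point is 1 array, black bars are group means, grey points are the controls, red points C10 with estradiol, and the dotted line is the dim level of 74.6. Runx1 climbs from 734 and 674 in vehicle to 3430 and 2509 at 48 h, Cbfa2t3 lies at the floor of 16 in both arrays at 3 h, and Tle5 is above the dim level in HAFTL only.

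The size of these changes depends on scaling. Spike-in scaling here means scaling to the array's probe sets for poly-A control RNAs. Whether such RNAs were added to these samples was not established. With this scaling the median change of all genes moved from -0.06 to 0.61 at 3 h and from -0.08 to 0.62 at 12 h. It moved from -0.13 to 0.17 at 24 h and from -0.19 to 0.40 at 48 h. With that scaling Runx1 was called higher at all 4 times, Tle1 at 3 h, and Cbfa2t3 lower at 3 h and 12 h. No other call of an estradiol time against vehicle was kept. The call of Tle5 in HAFTL against vehicle was kept. Relative to the moved median, Runx1 stood at 0.66, 1.06, 1.93 and 2.19 in order of time. Cbfa2t3 stood at -3.08 at 12 h, Tle4 at -1.41 at 12 h and Runx3 at -1.41 at 3 h on that relative scale. Among called changes at the estradiol times, the sign against vehicle turned for Runx3 at 12 h (0.31) and for Cbfb at 48 h (0.29). Among changes not called at these times it also turned for Cbfb at 24 h (0.10), Cbfa2t2 at 48 h (0.30) and Tle1 at 12 h (0.59). It turned as well for Tle3 at 3 h (0.77) and 12 h (0.47), and for Tle4 at 3 h (0.70).

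Of the Runx genes, Runx1 (chr16:92601466-92826074, GRCm38.p6) rose through the course and Runx3 (chr4:135120645-135177990) fell, with an interruption at 12 h. The 250 bases before the RefSeq start sites of these genes are shown with Cbfa2t3 further on because Runx1 rose most among the 9 genes, and Cbfa2t3 and Runx3 fell most at 3 h. Capitals mark every match to 4 motifs, each searched on both strands: the Runx core TGTGGT or TGCGGT (reverse strand ACCACA or ACCGCA), the C/EBP core TTGCNNAA, the PU.1 core GAGGAA (reverse strand TTCCTC) and the E-box CAGNTG. No matches overlapped in these windows. Runx1 has a distal and a proximal start, both on the minus strand, and the windows are chr16:92826075-92826324 and chr16:92697330-92697579; that of the upstream Runx3 start, on the plus strand, is chr4:135120395-135120644. The table has another Runx3 window, chr4:135152295-135152544, which holds no match to any of these motifs and is not printed.
Runx1 distal: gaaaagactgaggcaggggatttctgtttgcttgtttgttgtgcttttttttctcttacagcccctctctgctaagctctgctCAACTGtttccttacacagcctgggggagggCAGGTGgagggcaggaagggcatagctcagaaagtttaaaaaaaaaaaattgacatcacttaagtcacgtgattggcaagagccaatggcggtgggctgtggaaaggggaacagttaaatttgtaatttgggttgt
Runx1 proximal: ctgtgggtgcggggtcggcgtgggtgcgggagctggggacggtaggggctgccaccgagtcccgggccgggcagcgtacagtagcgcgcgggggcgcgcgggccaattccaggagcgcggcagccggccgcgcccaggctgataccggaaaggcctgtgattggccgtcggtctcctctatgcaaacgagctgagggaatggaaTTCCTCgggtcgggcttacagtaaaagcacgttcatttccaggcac
Runx3 upstream: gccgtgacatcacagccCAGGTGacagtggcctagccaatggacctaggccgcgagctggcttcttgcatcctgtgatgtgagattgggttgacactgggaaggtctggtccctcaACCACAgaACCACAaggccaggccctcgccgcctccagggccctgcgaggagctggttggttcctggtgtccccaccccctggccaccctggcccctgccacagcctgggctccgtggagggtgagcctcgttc
The upstream Runx3 window holds 2 adjacent ACCACA matches, 134 and 126 bases before the start, and 1 E-box. The distal Runx1 window holds 2 E-boxes and the proximal one a PU.1 core. Over all 32851 windows of this length in the RefSeq table, a Runx core was found in 18.6%, a C/EBP core in 9.56%, a PU.1 core in 23.3% and an E-box in 44.8%. Among 13 windows of 9 of the genes, 3 held a Runx core, 1 a C/EBP core (Runx2), 3 a PU.1 core and 4 an E-box. A match describes letters in the window and not a bound site.

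Runx1 gave 734 and 674 in vehicle C10 and 877 and 786 in HAFTL. With estradiol it gave 1089 and 1049 at 3 h, 1487 and 1337 after 12 h, 2399 and 2600 at 24 h, and 3430 and 2509 after 48 h. Every estradiol array of C10 was above all 4 control arrays, and from 3 h to 24 h no array of a time overlapped with those of the time before. Runx1 was 1.52-fold higher than in vehicle at 3 h (log2 0.60 ± 0.15, adjusted p = 0.0115), 2.00-fold at 12 h, 3.55-fold at 24 h and 4.17-fold at 48 h (log2 2.06 ± 0.15, adjusted p = 9.45e-06). The 3 h call was lost without vehicle replicate 2 (log2 0.54, adjusted p = 0.0654) or without 3 h replicate 1 (log2 0.58, adjusted p = 0.0546), and with the mean over its probe sets (log2 0.37, adjusted p = 0.0574). Between times, only the step from 12 h to 24 h was called (log2 0.82 ± 0.15, adjusted p = 0.00276); the step from 24 h to 48 h was 0.23 ± 0.15, and its 2 groups overlapped.

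All 6 Runx1 probe sets rose at 48 h, by 1.13 to 2.06 on the log2 scale, and 5 of 6 rose at 24 h. At 3 h and at 12 h 2 of 6 rose, and the lowest change at 3 h was -0.59, not called. Against this, 43.6% of all probe sets were called at 3 h, 45.7% after 12 h, 52% at 24 h and 57.1% after 48 h. The probe set 1427650_a_at followed another course than the brightest one: 222 and 217 in vehicle, 309 and 266 at 3 h, 192 and 216 after 12 h, 622 and 608 at 24 h, and 721 and 751 after 48 h. It fell from 3 h to 12 h (-0.49 ± 0.10, adjusted p = 0.011), where the brightest probe set did not. It was also lower in HAFTL, at 116 and 108, than in vehicle (-0.97 ± 0.10, adjusted p = 0.00203). The annotation used does not say which Runx1 transcripts each probe set reads.

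Runx3 gave 1548 and 1363 in vehicle and 1211 and 1065 in HAFTL. It gave 511 and 571 at 3 h, 1068 and 1177 after 12 h, 894 and 784 at 24 h, and 594 and 653 after 48 h. The highest estradiol array lay below the lowest vehicle array, but the 12 h and HAFTL arrays overlapped. Runx3 was 2.69-fold lower than vehicle at 3 h (log2 -1.43 ± 0.12, adjusted p = 5.35e-05), rose 2.08-fold from 3 h to 12 h (adjusted p = 0.000573), and was 2.33-fold lower than vehicle at 48 h (log2 -1.22 ± 0.12, adjusted p = 5.42e-05). At 12 h it was 1.30-fold lower (adjusted p = 0.0327), a call lost without vehicle replicate 1 (log2 -0.28, adjusted p = 0.168) or either 12 h array. With the mean over both probe sets it was not called at 12 h or 24 h (log2 -0.29, adjusted p = 0.445 at 24 h). The fall from 12 h to 24 h (-0.42 ± 0.12) was lost without replicate 2 of either time, and that from 24 h to 48 h (-0.43 ± 0.12) without any of the 4 arrays compared. The other Runx3 probe set, 1421467_at, was between 16 and 165 in all arrays and was called in no comparison with vehicle.

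Cbfb (chr8:105170674-105217989), the shared partner of all Runx proteins, stayed within a narrow band. It gave 7159 and 7054 in vehicle, 6497 and 8155 in HAFTL, 8188 and 7755 at 3 h, 7717 and 8689 after 12 h, 5973 and 5341 at 24 h, and 5017 and 5856 after 48 h. The 24 h and 48 h arrays lay below all others, and the range of HAFTL overlapped with those of vehicle, 3 h and 12 h. Cbfb fell from 12 h to 24 h (-0.54 ± 0.13, adjusted p = 0.0128). Against vehicle it was 0.17 ± 0.13 at 3 h and -0.33 ± 0.13 at 24 h, neither called, and it fell 1.31-fold by 48 h (-0.39 ± 0.13, adjusted p = 0.0341). The 48 h call was lost without vehicle replicate 1 (-0.38, adjusted p = 0.110), vehicle replicate 2 or 48 h replicate 1, and turned to 0.29 under spike-in scaling. The 12 h to 24 h call was lost without replicate 2 of either time.

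**Figure D2:**
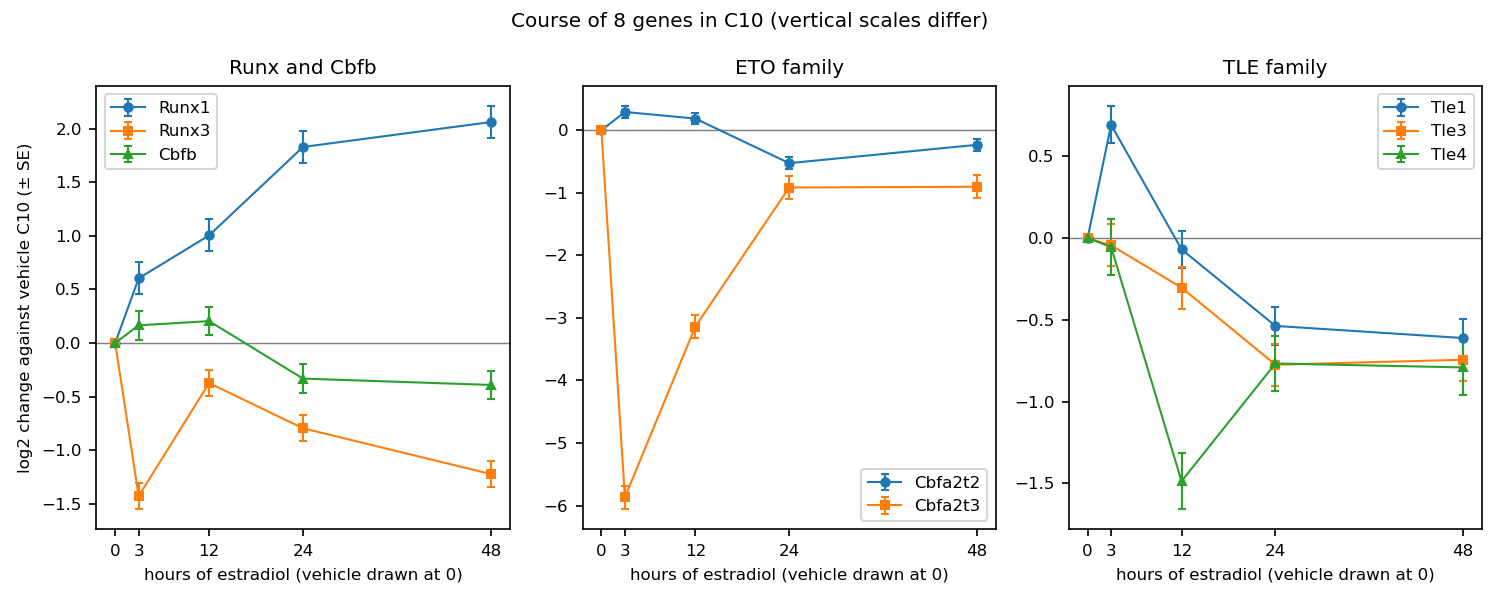
Log2 change against vehicle C10 (vertical axis, ± standard error of the fit) by hours of estradiol (horizontal axis, vehicle drawn at 0) for 8 genes in 3 families, with vertical scales that differ. Runx1 rises to 2.06 at 48 h, Tle1 peaks at 0.69 at 3 h, and Tle4 is lowest at 12 h (-1.49); the Cbfa2t3 point at 3 h lies at the floor and is a fitted value, not a measured fold.

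Of the ETO genes, Cbfa2t3 (chr8:122625136-122699332) showed the deepest loss of signal among the 9 genes, and Cbfa2t2 (chr2:154436098-154539356) moved little. The window before a Cbfa2t3 start, chr8:122699110-122699359 on the minus strand, holds 3 E-boxes, 2 PU.1 cores and 1 Runx core. Another Cbfa2t3 window in the table, chr8:122678176-122678425, holds 1 E-box and none of the other motifs, and is not printed.
Cbfa2t3 upstream: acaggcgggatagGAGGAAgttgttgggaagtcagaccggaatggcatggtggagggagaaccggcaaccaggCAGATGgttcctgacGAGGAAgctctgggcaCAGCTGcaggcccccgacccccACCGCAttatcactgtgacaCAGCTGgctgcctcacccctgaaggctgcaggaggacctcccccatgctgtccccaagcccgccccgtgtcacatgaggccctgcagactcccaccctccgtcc
Cbfa2t3 gave 982 and 889 in vehicle and 956 and 846 in HAFTL, and was at the floor of 16 in both arrays at 3 h. It gave 89.8 and 125 after 12 h, 549.9 and 447 at 24 h, and 448 and 557 after 48 h. The 3 h arrays were lowest, the 12 h arrays next, and the 24 h and 48 h arrays overlapped with each other and stayed below every control array. At 3 h the signal was at least 12.5-fold lower than in vehicle (adjusted p = 8.18e-07), a bound set against the dim level. The change was 8.81-fold lower at 12 h (log2 -3.14 ± 0.19, adjusted p = 9.27e-06), 1.89-fold at 24 h and 1.87-fold at 48 h (adjusted p = 0.0034). The return was called at both steps: at least 1.42-fold from 3 h to 12 h (adjusted p = 6.36e-05) and 4.67-fold from 12 h to 24 h (adjusted p = 5.45e-05). From 24 h to 48 h the change was 0.01 ± 0.19, not called.

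All 4 Cbfa2t3 probe sets fell at 3 h and at 12 h, and 2 of 4 at 24 h and at 48 h. The return was called in 2 of 4 from 3 h to 12 h and in 3 of 4 from 12 h to 24 h. The exception at the later step was 1440964_s_at, with 133 and 85.7 at 12 h and 120 and 94.1 at 24 h. The probe set 1418582_at gave 562 and 460 in vehicle, 70.6 and 29.6 at 3 h, 74.6 and 159 after 12 h, 330 and 321 at 24 h, and 278 and 265 after 48 h. Its late arrays were likewise below its vehicle arrays, though not called at 24 h or 48 h. The dimmest one, 1440963_at, was at 107 and 139 in vehicle and returned to the floor in both arrays at 48 h, so the probe sets of this gene did not all regain signal. It was also the only one called lower in HAFTL, with 58.1 and 38.8, at least 1.64-fold (adjusted p = 0.05 after rounding, just under the threshold). The probe set 1440964_s_at gave 221 and 184 in HAFTL against 267 and 309 in vehicle, without overlap and not called.

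Cbfa2t2, the ETO family member also named Mtgr1, gave 719 and 689 in vehicle and 651 and 686 in HAFTL. It gave 855 and 869.5 at 3 h, 776 and 828 after 12 h, 534 and 448 at 24 h, and 595 and 603.5 after 48 h. The 3 h and 12 h arrays were above all controls and the later ones below them. The rise at 3 h was 1.23-fold (0.29 ± 0.09, adjusted p = 0.0338) and was lost when any of the 4 arrays compared was left out, or under the replicate block (adjusted p = 0.0504). The fall at 24 h was 1.44-fold (-0.53 ± 0.09, adjusted p = 0.00179), and that from 12 h to 24 h was 1.64-fold (adjusted p = 0.000557). A second probe set, 1441615_at, rose at 3 h (0.45), 12 h (0.37) and 48 h (0.49 ± 0.12, adjusted p = 0.00799), while the brightest one was at -0.23 ± 0.09 at 48 h, not called. With the mean of its probe sets, Cbfa2t2 was at -0.03 at 24 h and no longer called.

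Of the TLE genes, Tle1, Tle3 and Tle4 fell by 24 h and 48 h, each by way of its own early course. Tle1 (chr4:72109945-72200989) gave 525 and 514 in vehicle, 425 and 430.3 in HAFTL, 803 and 877 at 3 h, 456 and 538 after 12 h, 358 and 357 at 24 h, and 373 and 309.5 after 48 h. The 3 h arrays stood above all others, the 12 h arrays enclosed those of vehicle, and the 24 h and 48 h arrays lay below both controls. Tle1 rose 1.62-fold at 3 h (0.69 ± 0.11, adjusted p = 0.00166), fell from 3 h to 12 h (-0.76 ± 0.11, adjusted p = 0.00197), and was 1.45-fold lower than vehicle at 24 h and 1.53-fold lower at 48 h (adjusted p = 0.00203). Both Tle1 probe sets rose at 3 h, each by 0.69, and 1 of 2 fell at 24 h and 48 h. The fall at 24 h was not called with the mean of both (-0.30, adjusted p = 0.0959).

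Tle3 (chr9:61372326-61418497) gave 3849 and 3649 in vehicle, 3686 and 3421 in HAFTL, 3350 and 3944 at 3 h, 3199 and 2886 after 12 h, 2299 and 2090 at 24 h, and 2479 and 2021 after 48 h. Its 3 h arrays enclosed those of both controls, and its 24 h and 48 h arrays were the lowest. It fell 1.71-fold by 24 h (-0.77 ± 0.13, adjusted p = 0.00124) and 1.67-fold by 48 h (adjusted p = 0.00134), with -0.04 ± 0.13 at 3 h and -0.30 ± 0.13 at 12 h, not called. At 24 h and at 48 h 2 of 4 Tle3 probe sets fell, and the highest change was 0.37 and 0.20, not called. At 12 h 1 of 4 rose and none fell. The Tle3 probe sets also disagreed at 3 h. The probe set 1458512_at went from 141 and 221 in vehicle to 639 and 665 at 3 h and 404 and 399 at 12 h, a 3.69-fold rise at 3 h (1.88 ± 0.22, adjusted p = 0.000377). Another, 1419654_at, rose 1.58-fold at 3 h (adjusted p = 0.0279) and fell 1.79-fold by 24 h (adjusted p = 0.00786), and 1449554_at was called at neither time.

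Tle4 (chr19:14448072-14598183) had its lowest signal at 12 h. It gave 1785 and 2311 in vehicle, 1850 and 1725 in HAFTL, 1920 and 1993 at 3 h, 646 and 814 after 12 h, 1160 and 1229.5 at 24 h, and 1045 and 1320 after 48 h. Vehicle and 3 h arrays overlapped, the 12 h arrays were below all others, and the 24 h and 48 h arrays overlapped with each other. Tle4 fell 2.80-fold by 12 h (-1.49 ± 0.17, adjusted p = 0.00023), rose 1.65-fold from 12 h to 24 h (adjusted p = 0.01) and was 1.73-fold lower than vehicle at 48 h (adjusted p = 0.00414), which was not called with the mean over probe sets (-0.23, adjusted p = 0.179). The step from 12 h to 24 h was lost without 12 h replicate 1 (0.55, adjusted p = 0.0652) or 24 h replicate 2. All 3 Tle4 probe sets fell at 12 h, by 0.99 to 1.49, whereas at 24 h and 48 h 1 of 3 fell. At 48 h the probe set 1430384_at was at 295 and 360 against 295 and 271 in vehicle, not called.

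**Figure D3:**
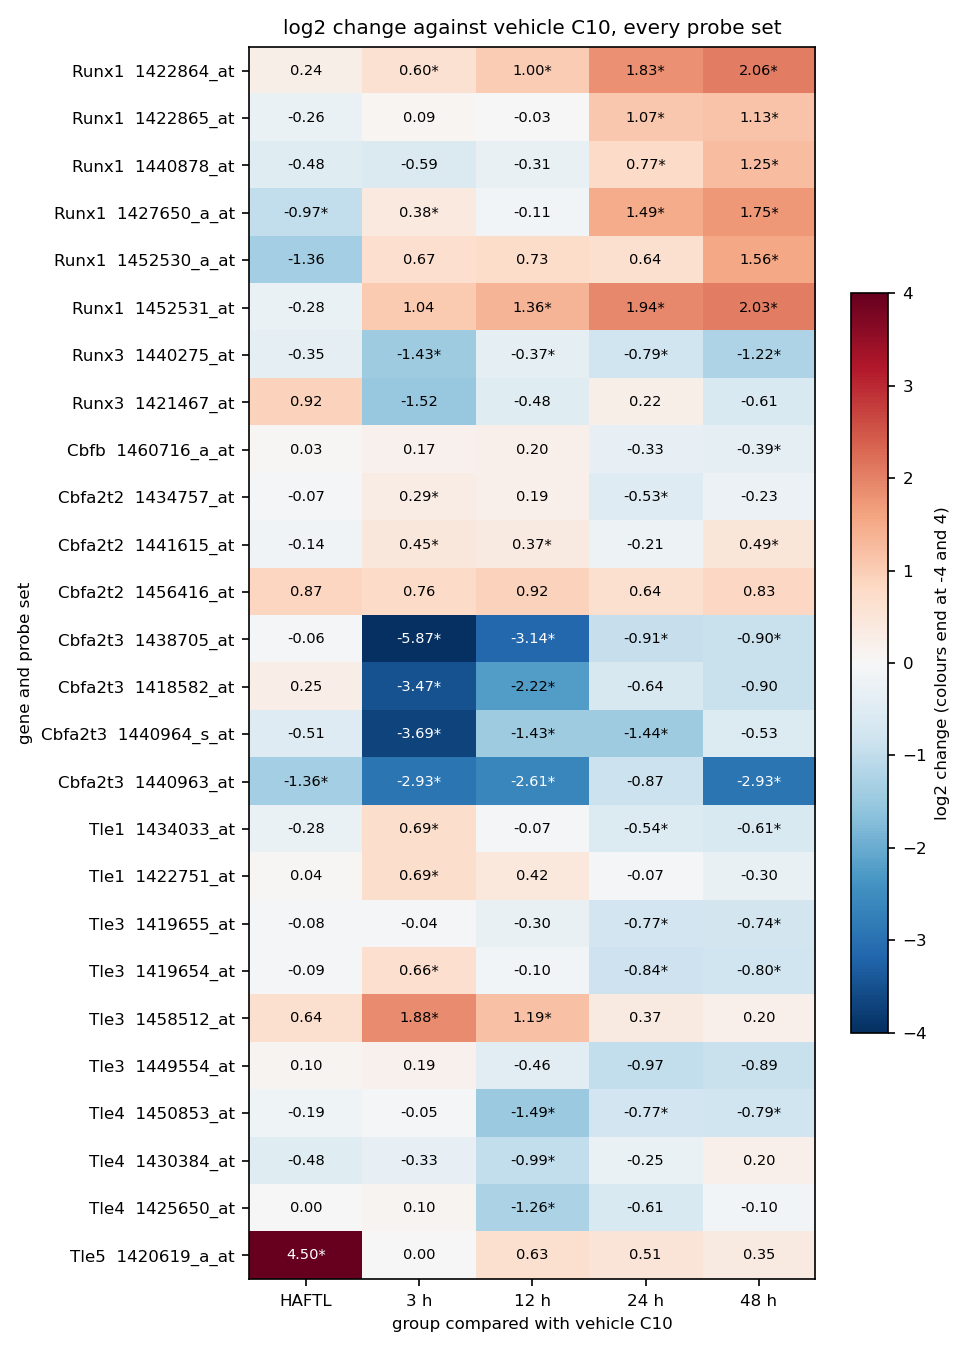
Log2 change against vehicle C10 for each of the 26 probe sets (rows) in HAFTL and at the 4 times (columns), with an asterisk where the adjusted p is below 0.05. All 4 Cbfa2t3 probe sets are lower at 3 h and 12 h, all 6 Runx1 probe sets are higher at 48 h, and the 4 Tle3 probe sets run from -0.04 to 1.88 at 3 h; values of probe sets at the floor, such as Cbfa2t3 at 3 h, are fitted and no measured fold.

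Tle5 (chr10:81559444-81566371), the short Groucho-related protein that lacks the WD repeat region of the other TLE proteins, separated the lines and not the times. It gave 357 and 368 in HAFTL, 16 in both arrays of vehicle and of 3 h, and at most 38.5 in the other C10 arrays. All 10 C10 arrays were under the dim level and both HAFTL arrays above it. HAFTL was at least 4.86-fold higher than vehicle C10 (adjusted p = 0.00113), and at least 4.86-fold higher than each estradiol group. This was the only call among the 9 genes in the comparison of HAFTL with vehicle, which called 15.2% of all genes, 7.11% higher in HAFTL and 8.12% lower; since Tle5 passed the filter only through HAFTL, a difference was set in part by the filter. Among the probe sets 1 was higher and 2 lower in HAFTL, against 10.9% of all probe sets called. Tle5 had 1 probe set, so no other reading of it was available, and no RefSeq window of it was in the table.

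Set against HAFTL, which also had estradiol, C10 gave these calls. Tle5 was lower each time, but it passed the filter only through HAFTL, so that outcome was set in part by the filter. At 3 h 2 were higher (Cbfa2t2 and Tle1) and 3 lower (Runx3, Cbfa2t3 and Tle5), with 50% of all genes called (22.3% higher, 27.8% lower). At 12 h 2 were higher (Runx1 and Cbfa2t2) and 3 lower (Cbfa2t3, Tle4 and Tle5), with 51.2% called (22.6% higher, 28.6% lower). At 24 h Runx1 was higher and 7 were lower, all but Tle1 (57.6% called, 23.8% higher and 33.8% lower), and at 48 h Runx1 was higher and 7 lower, all but Cbfa2t2 (62.5% called, 24.2% higher and 38.3% lower). Without 24 h replicate 2 the count at 24 h was 5, with Runx3, Cbfb and Tle4 no longer called. Several of these calls were close to the threshold. The Tle4 call at 24 h was lost without any of the 4 arrays compared and with the mean over probe sets (adjusted p = 0.0761). The Runx3 call at 24 h was also lost without HAFTL replicate 1. With only the groups compared, Runx3 (adjusted p = 0.0577) and Cbfa2t2 (adjusted p = 0.0543) were not called at 24 h. With the mean over probe sets neither was (adjusted p = 0.138 for Runx3 and 0.253 for Cbfa2t2). That of Cbfa2t2 at 12 h (0.26, adjusted p = 0.0482) was lost without any of the 4 arrays compared (adjusted p from 0.0804 to 0.2), without any vehicle, 3 h or 48 h array, with the replicate block (adjusted p = 0.0682) and with the mean over probe sets (adjusted p = 0.235). The Cbfa2t2 call at 3 h was lost without HAFTL replicate 1 (0.33, adjusted p = 0.0677) or 3 h replicate 2, and with the mean over probe sets. That of Tle1 at 48 h (-0.33, adjusted p = 0.0352) was lost without either HAFTL array, without 48 h replicate 2 (-0.20, adjusted p = 0.197), without any vehicle or 24 h array, with the replicate block and with the mean over probe sets. That of Cbfb at 48 h was lost without HAFTL replicate 2 (-0.26) or 48 h replicate 1. The Cbfb call at 24 h (-0.37, adjusted p = 0.0468) was lost without HAFTL replicate 2 (-0.20) and without any vehicle, 3 h, 12 h or 24 h array. It was also lost with the replicate block (adjusted p = 0.0535), with only the groups compared (adjusted p = 0.138) and with the mean over probe sets (adjusted p = 0.0503). Tle4 at 48 h was lost without HAFTL replicate 1 or 48 h replicate 1, its mean over probe sets was -0.01 (adjusted p = 0.968), and its probe set 1430384_at was called higher than HAFTL (0.68). Runx1 was 0.36 ± 0.15 above HAFTL at 3 h, not called, and 3.53-fold higher at 48 h (adjusted p = 1.94e-05). Cbfa2t3 was at least 12.0-fold lower than HAFTL at 3 h. These comparisons share the estradiol arrays with those against vehicle and are not separate evidence.

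Between consecutive times, the 9 genes were called most often from 12 h to 24 h. From 3 h to 12 h Runx3 and Cbfa2t3 rose and Tle1 and Tle4 fell, with 33.2% of genes called (16.6% in each direction). From 12 h to 24 h Runx1, Cbfa2t3 and Tle4 rose and Runx3, Cbfb, Cbfa2t2, Tle1 and Tle3 fell, 8 of 9, with 45.4% called (22.3% higher, 23.1% lower). Without 24 h replicate 2 that count was 3, and without 12 h replicate 2 it was 5. From 24 h to 48 h 1 fell, Runx3, with 27.4% called (9.47% higher, 17.9% lower).

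Over the 12 arrays, the genes whose log2 signal ran most like that of a member were found by Pearson correlation, a description in which all points share the same 6 groups. Runx1 was followed most closely by Rnf11 (0.99), Peak1 (0.99) and Sirpa (0.99). Cbfa2t3 was followed by Lyl1 (0.99), a basic helix-loop-helix factor of its complex, Elk3 (0.99) and Ube2h (0.99). Tle1 was closest to Usp2 (0.98), Prdm4 (0.97) and Zfand5 (0.97), and Tle3 to Ahsa1 (0.97), Nop56 (0.97) and Rbmxl1 (0.97). The nearest genes were Prpsap1 for Runx3 (0.97), Zfp326 for Cbfb (0.95), Rsbn1 for Cbfa2t2 (0.97), Emid1 for Tle4 (0.95) and Kcnn4 for Tle5 (0.97). Since Tle5 was dim in all 10 C10 arrays, its value only picks a gene that is high in HAFTL.

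The genes that work with these proteins were read from lists, each given by its calls against vehicle and its median log2 change. Over all genes tested, 20.9% were called higher and 27.3% lower at 3 h, 22.3% and 28.7% by 12 h, 24.2% and 33.3% by 24 h, and 24.2% and 38.2% by 48 h. The medians over all genes were -0.06, -0.08, -0.13 and -0.19. Of 12 tested ETO and E protein complex partners, 1 rose and 8 fell at 3 h, 2 and 8 after 12 h, 2 and 9 at 24 h, and 2 and 4 after 48 h, with medians of -0.59, -0.82, -0.69 and -0.24. Called in either direction were 9, 10, 11 and 6 of 12, beside 48.3%, 51%, 57.4% and 62.4% of all genes. Lyl1 fell 10.6-fold at 3 h (-3.40 ± 0.08, adjusted p = 5.14e-07) and was at -0.18 ± 0.08 at 48 h, not called. Tcf3, the E2A gene of B cell specification, fell further at each time, to -2.48 ± 0.11 at 48 h (adjusted p = 6.9e-07), Zbtb33 (Kaiso) fell by 1.38 and Tcf12 (HEB) 2.00-fold by 48 h. Gfi1, a repressor of the myeloid and lymphoid lineages, rose at all 4 times, most at 12 h (2.76 ± 0.15). Lyl1 and Gfi1 are named here after their values were seen.

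Of 6 tested TLE-recruiting repressors none rose and 4 fell at 3 h, none rose and 5 fell at 12 h, 1 rose and 3 fell at 24 h, and 1 rose and 4 fell at 48 h, with medians of -1.37, -1.17, -0.92 and -0.78. Called in either direction were 4, 5, 4 and 5 of 6, beside the same shares of all genes. Prdm1 was lower at 12 h and was the 1 that rose at 24 h and 48 h. Lef1, the Wnt-responsive factor of early B cells, fell 12.5-fold by 48 h (-3.64 ± 0.09, adjusted p = 6.73e-08). Hes1, a Notch target, was at least 5.29-fold lower at 48 h (adjusted p = 0.000669), and Pax5, the B cell commitment factor, fell by 1.28 (adjusted p = 0.00533). Of the family genes outside the 10, Tle6 was the 1 tested of 4, and it was lower at 3 h (-2.23, with 1 array under the dim level) and 12 h (-1.53) and not called later.

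Of 10 tested corepressor complex partners, 5 rose and 1 fell at 3 h, 4 and 1 after 12 h, 2 and 3 at 24 h, and 3 and 3 after 48 h, with medians of 0.39, 0.34, 0.21 and 0.12. Those called were 6, 5, 5 and 6 of 10, near the 48.3%, 51%, 57.4% and 62.4% of all genes. By 48 h Hdac2, a class I deacetylase, had fallen by 1.27 and Kdm1a, the LSD1 demethylase, by 0.82. Sin3a, a scaffold of deacetylase complexes, was called higher at 3 h and 12 h and had fallen by 0.47 at 48 h. The 3 called higher at 48 h were Hdac1, Hdac3 and Tbl1x. Of 11 tested RUNX partners and modifiers, 3 rose and 2 fell at 3 h, 4 and 3 after 12 h, 2 and 4 at 24 h, and 3 and 4 after 48 h, with medians of -0.11, 0.02, -0.21 and -0.17. Those called were 5, 7, 6 and 7 of 11, again near the share of all genes. Hipk1 was called higher at all 4 times, and Kmt2a and Ep300 were the others called higher at 48 h. Ets1, which binds DNA beside Runx1, rose by 1.29 at 3 h and fell by 1.52 at 48 h, while Prmt1, which methylates Runx1, fell by 1.77 and Cdk6 by 1.22 at 48 h.

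Of 7 tested genes with published RUNX sites in blood cells, 1 rose and 3 fell at 3 h, 3 and 2 after 12 h, and 3 and 2 at both 24 h and 48 h, with medians of -0.81, -0.25, 0.29 and 1.54. Those called were 4, 5, 5 and 5 of 7, beside 48.3%, 51%, 57.4% and 62.4% of all genes. Csf1r, the macrophage growth factor receptor, rose by 6.36 ± 0.16 at 48 h (adjusted p = 6.73e-08). Ebf1, a B lineage factor, fell by 2.37, and Cd79a, a part of the B cell receptor, by 1.99. Csf1r, Ebf1 and Cd79a are also in the marker lists above, so they are not separate from them. With spike-in scaling the falls among ETO and E protein partners numbered 2, 0, 2 and 1 at the 4 times and among TLE-recruiting repressors 3, 2, 2 and 2 (of 7 tested), and the medians were 0.13, -0.07, -0.38 and 0.31 in the first list and 0.04, -0.40, -0.90 and 0.40 in the second. Of the corepressor partners 5, 3, 0 and 0 then rose and none fell, with medians of 1.16, 1.04, 0.53 and 0.68. Of the RUNX partners 3, 2, 1 and 2 rose and 1 fell at each time, with medians of 0.58, 0.71, 0.09 and 0.40. Of the genes with RUNX sites 1, 3, 3 and 4 rose and 0, 1, 1 and 2 fell, with medians of 0.02, 0.30, 0.61 and 2.06. Under that scaling Lyl1 at 3 h (-2.60), Lef1 at all 4 times Tcf3, Hes1, Prmt1, Csf1r, Ebf1 and Cd79a at 48 h were called. Hdac2, Kdm1a, Sin3a (which turned to 0.07), Zbtb33, Tcf12, Pax5, Ets1 and Cdk6 at 48 h were not.

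**Figure D4:**
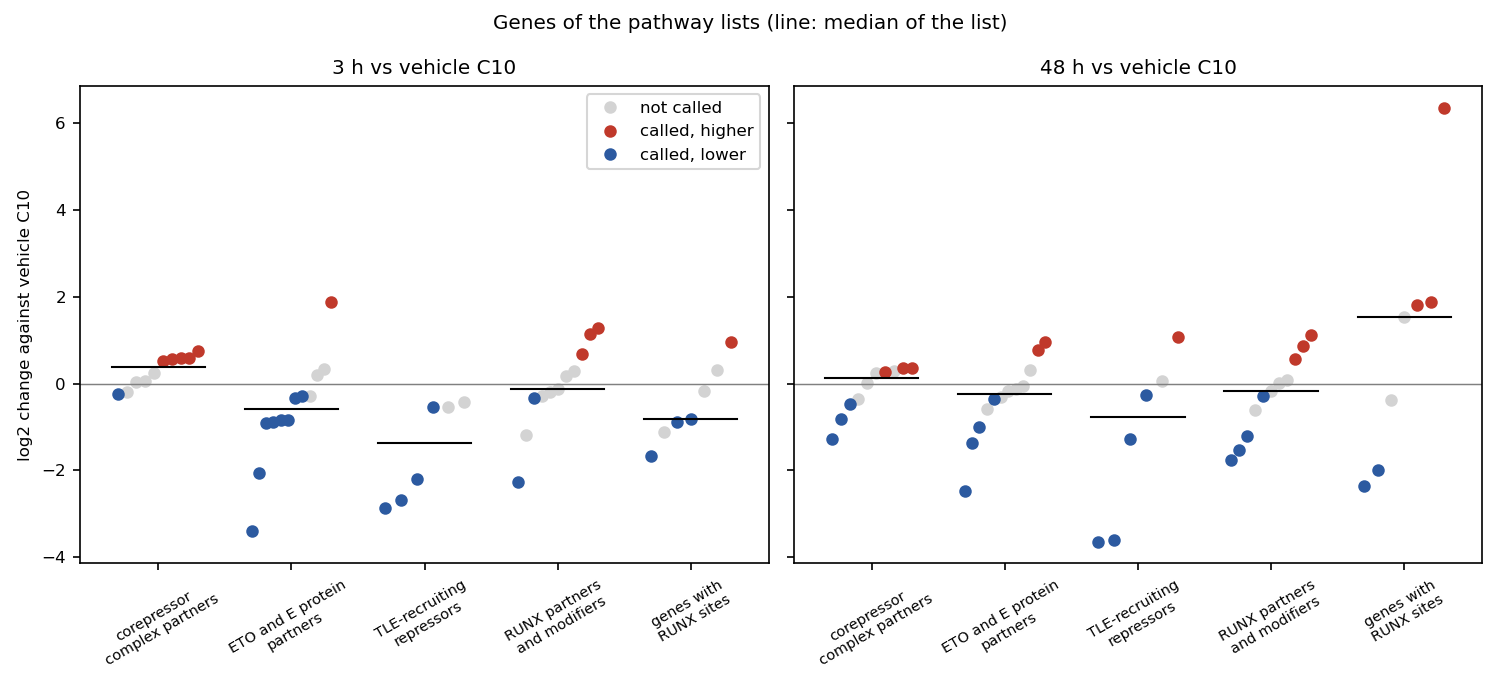
Log2 change against vehicle C10 (vertical axis) of each tested gene in 5 lists (horizontal axis) at 3 h and 48 h; red points are called higher, blue called lower, grey not called, and the black line is the median of the list. The medians of the ETO and E protein partners go from -0.59 to -0.24 and those of the genes with RUNX sites from -0.81 to 1.54, and under spike-in scaling from 0.13 to 0.31 and from 0.02 to 2.06.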

How the data were processed

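Per the labels, total RNA was extracted with Trizol reagent, biotin-labelled and hybridised to one-colour arrays. Each deposited value is the intensity of a probe set on a linear scale. The 12 arrays have 1 and the same trimmed mean, which shows that the authors scaled the intensities; how is not given in the sources used here. Array medians ran from 68.5 to 85.0, and the number of arrays limits the precision.

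Intensities were put on the log2 scale and quantile normalised over 45101 probe sets. The 64 control probe sets were left out, and a floor of 16 was applied. Names came from the platform annotation (34945 probe sets with 1 gene symbol, 932 with several, 9160 with none; 34741 matched RefSeq of GRCm38.p6 by gene ID). For each gene the probe set with the highest mean was kept, and it was tested if its log2 signal exceeded 6.22 in at least 2 arrays. limma (3.58.1, R 4.3.3) fitted 1 mean per group to all arrays with moderated, two-sided tests, Benjamini-Hochberg adjustment over 11696 genes, or over 21922 probe sets fitted separately, and 6 residual degrees of freedom with a prior of 1.53. The fit was tested on simulated data. Where both arrays of a group were dim, the fold is a bound against a signal of 74.6. Sequences are RefSeq's, build GRCm38.p6.

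The genes, lists and tests were chosen with earlier results of these data known. Named genes were all members, their 3 most alike genes (1 is named where a sentence covers several members), and, per list, the 3 that differed most from vehicle at 48 h. Also named, after their values were seen, were Lyl1, Gfi1 and Prdm1, and the corepressor and RUNX partners called higher at 48 h. The labels do not say whether same-numbered arrays were prepared together, and the main fit did not pair them. Over 15 pairs of groups, same-numbered arrays' deviations correlated between -0.03 and 0.04, which does not show how the arrays were prepared. Alternatives tried were the deposited scale, median centring, spike-in scaling, other filters, floors and a pseudocount of 16, averaging the probe sets of a gene, fitting each probe set, fitting only the compared groups, a replicate block, an intensity trend with a robust prior, and leaving out each array.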

Additional observations from a re-analysis of the deposited data

How the results depend on the processing

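Among the 63 changes of single genes called, the alternatives other than left-out arrays kept 661 calls in the same direction, lost 89 and turned 6, and leaving out each array in turn kept 692, lost 64 and turned none. Leaving out an array outside the groups compared does not alter the log2 change. Such a run could not turn a call and could lose it only through the spread or the adjustment. The left-out counts pool these runs with those that drop a compared array. Spike-in scaling, which moves the median of all genes, alone lost 38 and turned 5: Runx3 at 12 h (0.31) and Cbfb at 48 h (0.29) against vehicle, and Cbfb at 24 h (0.0434), Cbfb at 48 h (0.23) and Tle1 at 48 h (0.0466) against HAFTL. With the mean over probe sets, Runx3 from 12 h to 24 h turned to 0.14. Counts of the 9 genes called under spike-in scaling were 3, 2, 1 and 1 at 3, 12, 24 and 48 h against vehicle, 3, 3, 2 and 2 against HAFTL, 1, 1 and 0 for the consecutive steps, and 3 by the F test. With the mean of probe sets, 4 were called at 24 h against vehicle, 4 at 24 h against HAFTL, 2 in HAFTL against vehicle and 0 from 24 h to 48 h. An intensity trend with a robust prior called 2 in HAFTL against vehicle, and median centring 8 at 3 h against HAFTL. From 24 h to 48 h the count was 2 with the deposited scale, a floor of 64 or a filter at the 70th percentile, and 0 without a filter, with only the groups compared or with the replicate block. With only the groups compared it was 5 at 24 h against HAFTL. Leaving out arrays gave 3 to 5 at 3 h, 3 to 8 from 12 h to 24 h, 0 to 1 from 24 h to 48 h and 5 to 8 at 24 h against HAFTL, where 24 h replicate 2 gave the lowest count. The replicate block lost 5 of the 63 calls. The cause of these differences was not tested. Dim signals limit Tle5 in C10 and Cbfa2t3 at 3 h to bounds.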
